A study of Mus musculus with 6 samples.

Results

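Genes of the Trim family were examined in mouse fetal liver cells of strain C57BL/6, taken at E14.5 and sorted for medium CD71 and no Ter119 (a gate named R1 in the labels, described there as erythroid precursors). The 3 -77-/- libraries carry on both alleles the -77 genotype named in the labels, where -77 is known as an enhancer upstream of Gata2, and the 3 wild type libraries carry the intact element. No treatment is given for either genotype, and the labels give no sex, litter or number of livers per library, so each p-value rests on the spread among 3 libraries per genotype whose sources are not described. The sources used here do not say how the -77 allele was made. The question of the comparison is how expression in the sorted cells differs between -77-/- and wild type. Members were all rows whose gene symbol is Trim followed by a digit: 55 of 19436 rows, with 54 distinct symbols, since Trim30b stands in 2 rows with different Ensembl IDs.

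Most Trim proteins are E3 ubiquitin ligases, enzymes that choose the protein to which ubiquitin is attached. They are built from a RING domain, which binds the ubiquitin conjugating enzyme, B-boxes and a coiled coil, and the C-terminal part differs between subgroups and usually picks the target. Many act in antiviral defence and are induced by interferon, whereas Trim10 and Trim58 are known from maturing red cells and the TIF1 group (Trim24, Trim28, Trim33, Trim66) represses transcription in the nucleus.

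Libraries held 16516338 to 20468899 recovered reads, and 3 reads correspond to a normalized value of 2.56 to 3.42. Of the targeted locus, Gata2 itself had 74.2, 26.2 and 34.2 normalized reads in -77-/- replicates 1 to 3, against 128, 87.8 and 61.5 in wild type replicates 1 to 3, and the groups overlapped. Its log2 fold change was -1.10 (adjusted p = 0.183), which did not pass the test, so that gene does not separate the labels by itself. The labelled cell type was checked against its markers. All 14 erythroid markers passed as lower in -77-/-, with a summed level of 3608 to 8424 in -77-/- libraries, against 52923 to 56409 in wild type libraries. Tfrc, which encodes CD71, had 4140.3, 2367 and 3413 normalized reads in -77-/- replicates 1 to 3, against 17456, 14441 and 11831 in wild type replicates 1 to 3. Erythroid markers were present in both genotypes and far lower in -77-/-. Of 13 monocyte and macrophage markers with a row, 12 passed as higher, and their sum was 30574 to 42071 in -77-/- libraries, against 1707 to 3149.8 in wild type libraries. The 7 dendritic markers gave 6 higher and 1 lower, with a sum of 6605 to 7128 in -77-/- libraries, against 896 to 1183 in wild type libraries. Neutrophil markers summed to 42714 to 46798 in -77-/- libraries, against 13561 to 23429 in wild type libraries, with 3 of 8 higher and 3 lower, and lymphoid markers to 1859.7 to 3418 in -77-/- libraries, against 496 to 810.2 in wild type libraries, with 6 of 7 tested higher. Over all genes tested, 16.9% passed as higher and 15.2% as lower. In these bulk libraries, fewer cells of a type and less RNA per cell cannot be told apart, and the part of cell composition in the results below was not tested. Xist, read as a marker of sex, stood at 41877 in wild type replicate 2 and at 28.5 to 63.2 in the other 5 libraries. By this marker that replicate differs in sex makeup from the rest, and the part of sex in the results below was not tested.

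Among tested rows, Trim genes were called more often than the table as a whole, and mostly upward. Of 55 members, 46 had a mean of at least 10 normalized reads in the higher genotype and were tested, and 27 of the 46 (58.7%) passed limma's moderated test at an adjusted p of 0.05, against 32.2% of the 15821 genes tested. Of the 46, 21 were higher in -77-/- (45.7%, against 16.9% of all genes) and 6 were lower (13%, against 15.2% of all genes). Among the 21 higher rows, 9 are genes related to primate TRIM5. Several of these are close copies of each other, so the members are not independent. A change of at least 2-fold was called for 21 members, against 18.7% of all genes: 18 were higher, against 12.6%, and 3 were lower, against 6.11%. The libraries of the 2 genotypes did not overlap for 29 members (63.0%), against 46.5% of all genes. The median log2 fold change was 0.89 over the tested members and 0.10 over all genes, and the members ran from -4.95 to 6.49. The count of higher members was smaller with any 1 library left out. It was 13, 13 and 12 without -77-/- replicates 1, 2 and 3, and 16, 16 and 19 without wild type replicates 1, 2 and 3. In these fits 5 to 7 members were lower, and 3915 to 5108 of all genes passed in either direction. All fold changes here set -77-/- over wild type, on a log2(value + 1) scale. Of the 46, 7 entered only through the genotype in which they were high (Trim7, Trim16, Trim17, Trim30b, Trim34b, Trim36 and Trim66). Among these, Trim7, Trim16, Trim30b, Trim36 and Trim66 are counted in the 21 higher members. Over all genes, 2668 of the 15821 tested entered in this way. The tested members are therefore not a sample of the whole family, and the shares above only describe the tested rows. In the authors' deposited table, 18 members were higher and 6 lower at an adjusted p of 0.05. The 6 lower members were those found lower here, and 3 members found higher here (Trim30c, Trim35 and Trim55) did not pass in the authors' deposited table.

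**Figure D1:**
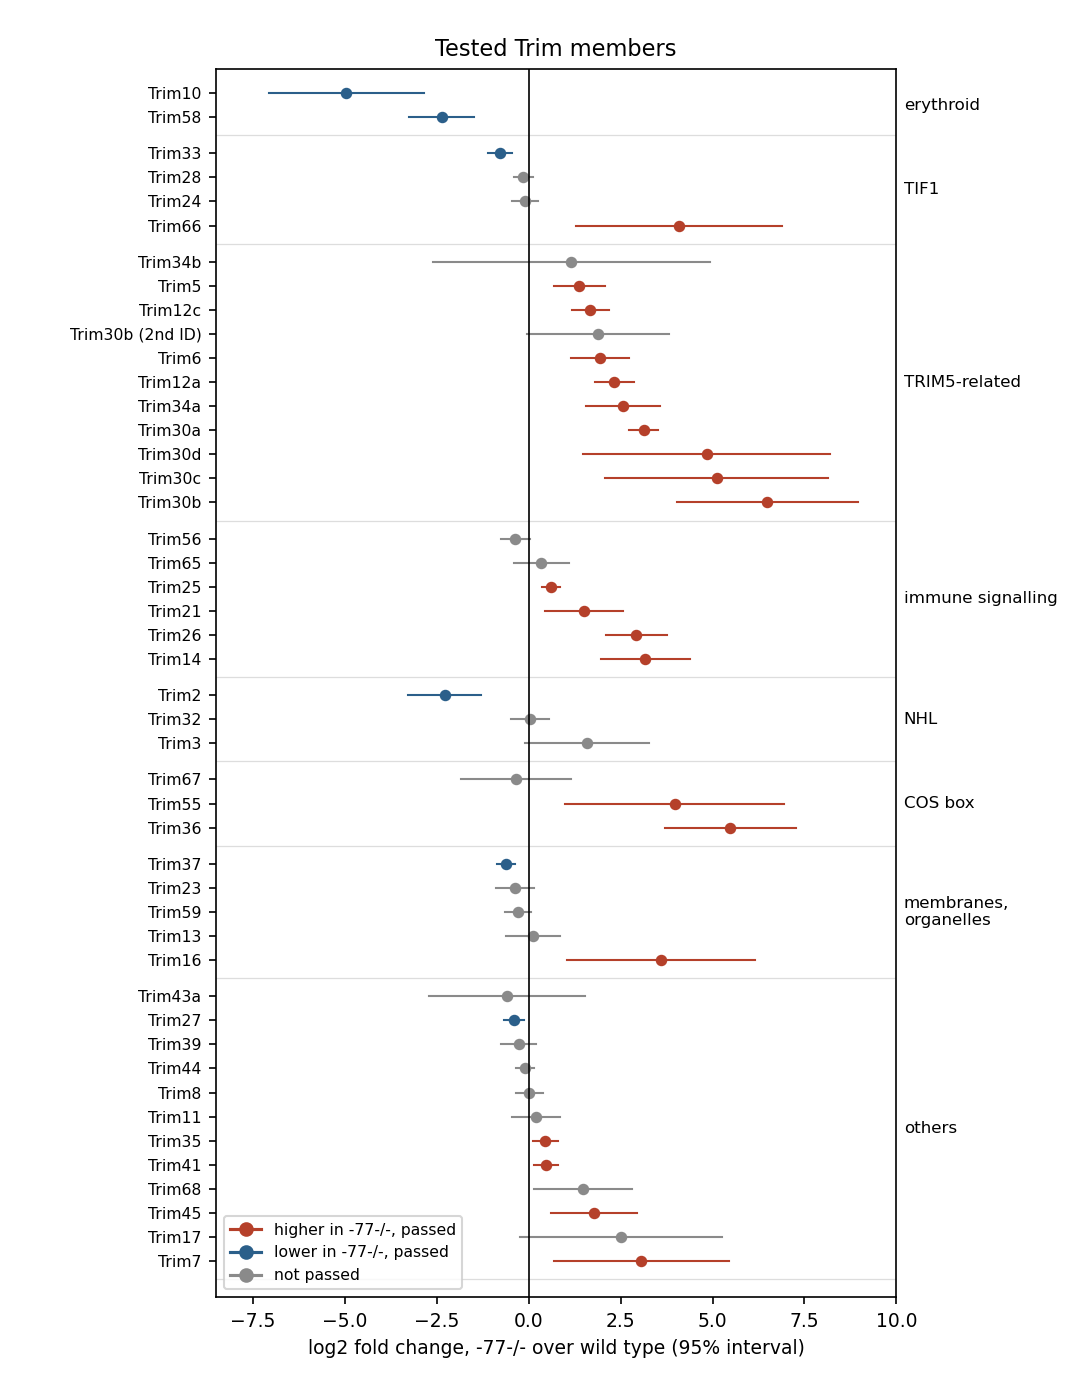
Log2 fold change of each tested Trim member, -77-/- over wild type (horizontal axis), with its 95% interval from limma, grouped by role and coloured by call. Red points (21 higher) gather in the TRIM5-related and immune groups, and blue points (6 lower) include both erythroid members at the top.

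Both members known from red cell maturation were lower in -77-/-. Trim10, also known as HERF1 and required for maturation of erythroid cell lines in culture, had 74.2, 3.89 and 4.27 normalized reads in -77-/- replicates 1 to 3, against 375, 345 and 441 in wild type replicates 1 to 3. The wild type libraries lay close together, whereas -77-/- replicate 1 stood well above the other -77-/- libraries, and the groups did not overlap. Trim10 averaged 27.5 ± 40.5 in -77-/- and 387 ± 48.99 in wild type (SD, n = 3 each), with a log2 fold change of -4.95 (SE 0.94, adjusted p = 0.00255). Leaving out -77-/- replicate 1 gave a log2 fold change of -6.25, and leaving out -77-/- replicate 2 or 3 gave -4.28 and -4.33, all of which passed. With DESeq2 it was -3.82, which passed, and with edgeR it was -3.84, which did not (adjusted p = 0.0710; range over all 16 alternatives 8.09e-06 to 0.0710). The same -77-/- replicate 1 was also the highest of its genotype for Gata1, at 502, 96.2 and 132 in replicates 1 to 3, and for Klf1, at 117, 17.5 and 21.3. Both genes encode transcription factors of red cells. The 14 erythroid markers summed to 8424, 3608 and 5233 in -77-/- replicates 1 to 3. Among them, Hba-a2 (101, 69.0 and 111) and Aqp1 (6.10, 15.6 and 17.9) were not highest in replicate 1. The part of cell composition in the Trim10 values was not tested.

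Trim58, a ligase induced late in red cell maturation that directs breakdown of the dynein motor, had 63.04, 35.00 and 64.9 normalized reads in -77-/- replicates 1 to 3, against 207, 288 and 339.6 in wild type replicates 1 to 3. Every -77-/- library lay below every wild type library. Trim58 averaged 54.3 ± 16.7 in -77-/- and 278 ± 66.7 in wild type (SD, n = 3 each), with a log2 fold change of -2.36 (SE 0.41, adjusted p = 4.26e-04), and it passed in all 16 alternatives. Of 12 dynein and dynactin genes tested, none was higher and 4 were lower, with a median log2 fold change of -0.04. The share called in either direction, 33.3%, is near the 32.2% of all genes. All calls were lower, against 15.2% of all genes called lower, a difference of few genes in so short a list. Nothing is read from that count. The lower ones were the light chain genes Dynlt3 (log2 fold change -0.92, adjusted p = 0.00528) and Dynll1 (-0.67, adjusted p = 0.0320), the dynactin gene Dctn2 (-0.66, adjusted p = 0.00703) and the intermediate chain gene Dync1i2 (-0.40, adjusted p = 0.0172). The heavy chain gene Dync1h1 had a log2 fold change of 0.13 (95% interval -0.07 to 0.33, adjusted p = 0.314). These values are of RNA and do not measure breakdown of the proteins.

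The promoter window of Trim10 is shown because it holds a GATA motif. It is the RefSeq window from 250 bases before to 50 bases after the gene start, chr17:36869324-36869623 on the plus strand of GRCm38.p6. Capitals mark AGATAA, here read on the opposite strand as TTATCT.
Trim10: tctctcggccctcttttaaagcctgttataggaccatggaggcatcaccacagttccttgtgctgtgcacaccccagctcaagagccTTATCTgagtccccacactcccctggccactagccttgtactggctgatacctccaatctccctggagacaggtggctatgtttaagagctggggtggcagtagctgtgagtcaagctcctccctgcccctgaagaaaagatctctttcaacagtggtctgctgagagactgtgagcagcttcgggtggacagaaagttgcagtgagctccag
Of all genes with a RefSeq promoter window of this length, 12.7% hold AGATAA on either strand (11.2% of 32851 windows), and 4 of 40 members with a window do (Trim10, Trim34b, Trim39 and Trim72). TGATAA stands in a window of 10.45% of all genes (9.05% of windows) and, among members, in a window of Trim2 and Trim72. The motif of Klf1, CCACACCC, is in a window of 4.09% of all genes (3.56% of windows) and, among members, in a window of Trim13 and Trim25. The window of Trim58 holds none of the 5 motifs searched, which says only that these letters are not in that window.

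**Figure D2:**
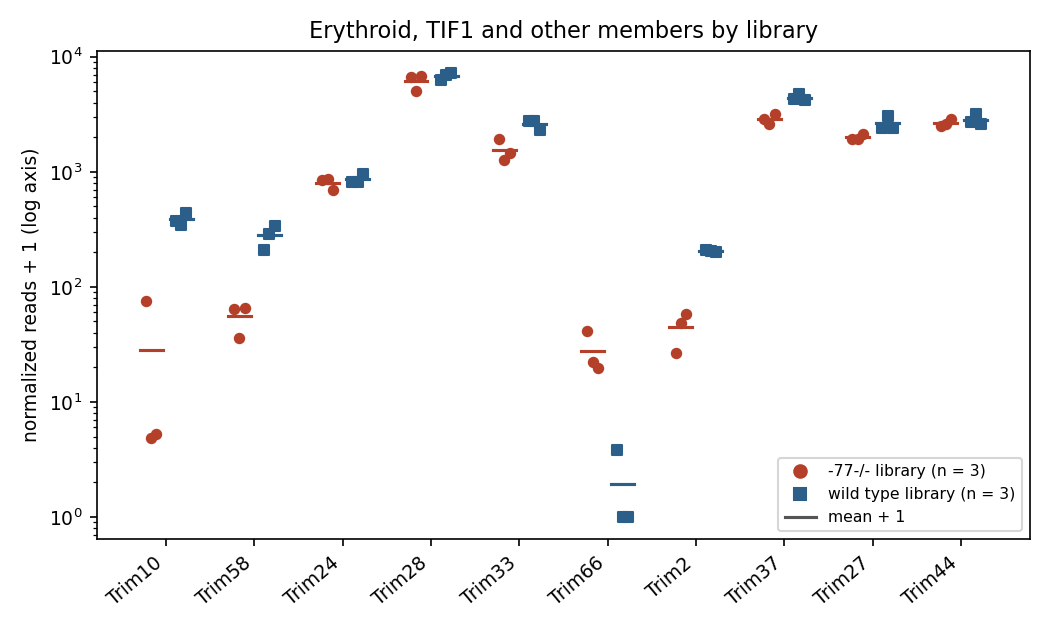
Normalized reads + 1 (vertical log axis) of the erythroid, TIF1 and other named members in each -77-/- library (red circles) and each wild type library (blue squares), with bars at the group mean + 1. Trim10, Trim58, Trim33, Trim2, Trim37 and Trim27 lie lower in -77-/- without overlap, and Trim66 lies higher.

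The genes related to primate TRIM5, which encodes a factor that blocks retroviral capsids, formed the largest group of higher members. Of 11 rows tested, 9 were higher (81.8%, against 16.9% of all genes), none was lower and 2 did not pass. Trim30b and Trim34b entered only through the genotype in which they were high, and Trim30b is among the 9. The list was also chosen with earlier results of these data known, so nothing is read from that count. Their median log2 fold change was 2.33 whether Trim30b was taken at its fitted value or at its bound. All 9 that passed changed at least 2-fold. They lie together on chromosome 7, and several are close copies of each other, so reads may be split between them.

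Trim30a, an interferon-inducible gene known to restrain Toll-like receptor signalling through loss of Tab2 and Tab3 protein, had 2197, 2973 and 2199 normalized reads in -77-/- replicates 1 to 3, against 327, 273 and 238 in wild type replicates 1 to 3. The -77-/- libraries all lay several fold above the wild type ones. Its means were 2456 ± 447 in -77-/- and 279.7 ± 44.96 in wild type (SD, n = 3 each), with a log2 fold change of 3.13 (SE 0.18, adjusted p = 8.92e-09), and it passed in all 16 alternatives. Of its 50-base windows in GENCODE transcripts, 5.98% also occur in Trim30d.

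Trim12a had 698, 774 and 692 normalized reads in -77-/- replicates 1 to 3, against 159, 167 and 109 in wild type replicates 1 to 3, and the groups were far apart, with a log2 fold change of 2.33 (SE 0.25, adjusted p = 4.00e-06). Its neighbour Trim12c had 606, 941 and 821 normalized reads in -77-/- replicates 1 to 3, against 202, 241 and 289 in wild type replicates 1 to 3, with a log2 fold change of 1.68 (SE 0.23, adjusted p = 5.69e-05). The mouse gene named Trim5 had 305, 293 and 210.03 normalized reads in -77-/- replicates 1 to 3, against 104, 94.8 and 107 in wild type replicates 1 to 3, with a log2 fold change of 1.37 (SE 0.33, adjusted p = 0.00441). All 3 were separated by genotype, yet they are not fully independent measurements. Of the 50-base windows, 33.7% of Trim12c, 36.6% of Trim5 and 10.5% of Trim12a also occur in other genes, mostly in one another. Each of the 3 passed in all 16 alternatives.

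Trim6, whose human counterpart acts in interferon signalling through the kinase IKKε, had 377, 341 and 313 normalized reads in -77-/- replicates 1 to 3, against 135, 51.9 and 99.1 in wild type replicates 1 to 3. The groups did not overlap, with a log2 fold change of 1.94 (SE 0.37, adjusted p = 8.93e-04). Trim34a had 192, 294 and 290.3 normalized reads in -77-/- replicates 1 to 3, against 40.3, 24.9 and 71.8 in wild type replicates 1 to 3, also without overlap, with a log2 fold change of 2.58 (SE 0.47, adjusted p = 6.09e-04). Its copy Trim34b had 0, 15.6 and 18.8 normalized reads in -77-/- replicates 1 to 3, against 28.1, 0 and 0 in wild type replicates 1 to 3, which overlap, and its log2 fold change of 1.16 had a 95% interval of -2.60 to 4.92 (adjusted p = 0.645). Of the windows of Trim34a, 59.7% also occur elsewhere, 39.8% in Trim34b and 20.2% on the opposite strand of Gm47248, so reads of these genes cannot be told apart in full. Trim6 and Trim34a passed in all 16 alternatives.

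Trim30b (ENSMUSG00000052749) had 119.98, 100.1 and 58.1 normalized reads in -77-/- replicates 1 to 3, against 0, 0 and 0 in wild type replicates 1 to 3. No read was recovered in wild type over 3 libraries, against 289 in -77-/-, and with 3 reads over the wild type group as the floor Trim30b was at least 89.1-fold higher in -77-/- (adjusted p = 4.84e-04, passing in all 16 alternatives). The other row with this symbol (ENSMUSG00000091576, which GENCODE M21 does not hold) had 26.4, 47.6 and 50.4 normalized reads in -77-/- replicates 1 to 3, against 10.3, 7.98 and 12.5 in wild type replicates 1 to 3. It did not overlap between genotypes either, but its adjusted p was 0.130 (log2 fold change 1.88, 95% interval -0.06 to 3.82), and it passed in 1 alternative, limma without trend or robust fitting (adjusted p = 0.0155).

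Trim30c and Trim30d were higher with uneven wild type libraries. Trim30c had 104, 144 and 159 normalized reads in -77-/- replicates 1 to 3, against 0, 0 and 56.98 in wild type replicates 1 to 3, so that 1 wild type library carried all wild type reads. It had a log2 fold change of 5.12 (SE 1.40, adjusted p = 0.0133), with alternatives from 7.43e-05 to 0.402. Trim30c did not pass without wild type replicate 1 (log2 fold change 4.14, adjusted p = 0.0667) or without wild type replicate 2 (4.14, adjusted p = 0.0801). Leaving out wild type replicate 3 gave 7.07. The size also depended on the tool: edgeR gave a log2 fold change of 2.86 (adjusted p = 0.292) and DESeq2 gave 2.84 (adjusted p = 0.402).

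Trim30d had 423, 459 and 363 normalized reads in -77-/- replicates 1 to 3, against 0.938, 96.8 and 14.8 in wild type replicates 1 to 3, with wild type replicate 2 far above the other wild type libraries and still below every -77-/- library. It had a log2 fold change of 4.84 (SE 1.37, adjusted p = 0.0408), and 8 of 16 alternatives passed, with adjusted p from 4.85e-05 to 0.163. The log2 fold change was 3.40 without wild type replicate 1 and 6.22 without wild type replicate 2, and both passed. With edgeR the log2 fold change was 3.46, which did not pass (adjusted p = 0.120), and with DESeq2 it was 3.47, which passed (adjusted p = 0.0363). Trim30d did not pass when any other single library was left out, at adjusted p of 0.163 without wild type replicate 3 and of 0.0593, 0.0729 and 0.0572 without -77-/- replicates 1, 2 and 3.

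**Figure D3:**
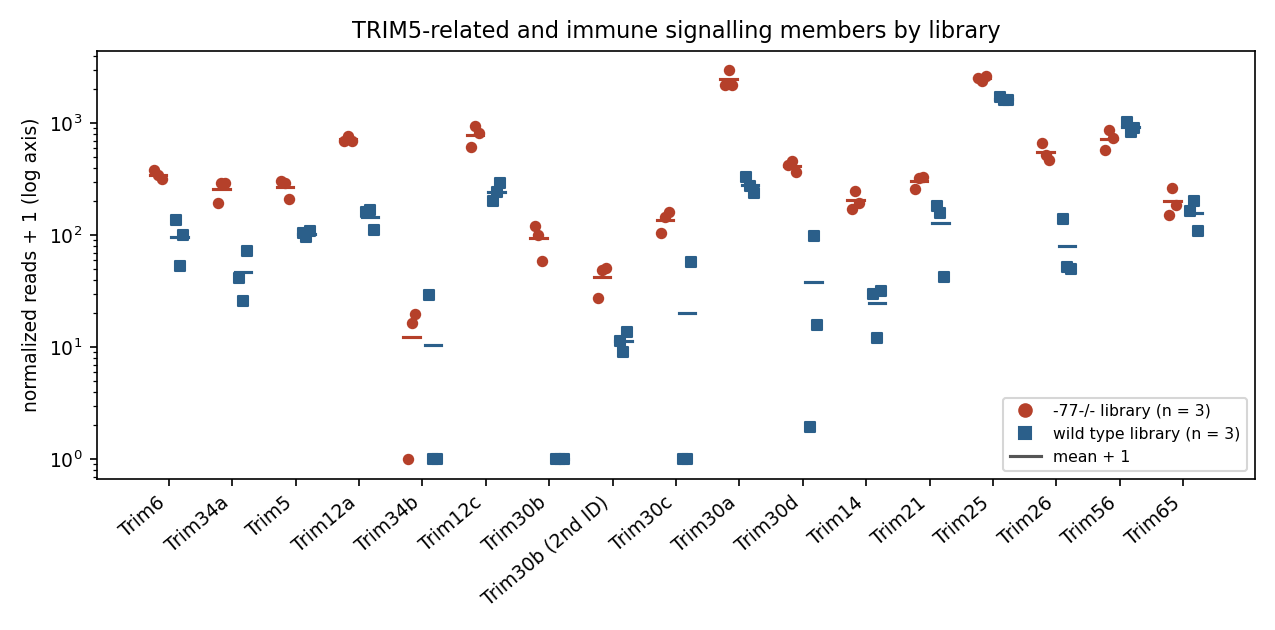
Normalized reads + 1 (vertical log axis) of the TRIM5-related and immune signalling members in each -77-/- library (red circles) and each wild type library (blue squares), with bars at the group mean + 1. Trim30a lies between 2197 and 2973 in -77-/- and between 238 and 327 in wild type, and Trim34b, Trim56 and Trim65 overlap between genotypes.

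Members that act on signalling from sensors of viral nucleic acid were higher or did not pass. Of 6 tested, 4 were higher (66.7%, against 16.9% of all genes), none was lower and 2 did not pass. Their median log2 fold change was 1.06. Trim31, Trim38 and Trim40 of the same list had no row to test.

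Trim14, an adaptor on mitochondria in signalling by Mavs, had 172, 249 and 193 normalized reads in -77-/- replicates 1 to 3, against 29.1, 10.98 and 30.8 in wild type replicates 1 to 3. The genotypes were well apart, with a log2 fold change of 3.17 (SE 0.57, adjusted p = 5.08e-04), passing in all 16 alternatives. Of its 50-base windows, 33.9% lie on the opposite strand of other genes, 29.5% on that of Nans. The sources used here do not name the strand setting of the counting. Nans itself had a log2 fold change of 0.09 (adjusted p = 0.640).

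Trim26, reported to limit interferon production through Irf3, had 661, 517 and 464 normalized reads in -77-/- replicates 1 to 3, against 139, 50.9 and 49.00 in wild type replicates 1 to 3. Wild type replicate 1 was above the other wild type libraries and still far below -77-/-, with a log2 fold change of 2.93 (SE 0.39, adjusted p = 3.77e-05), passing in all 16 alternatives. Trim25, which ubiquitinates the RNA sensor RIG-I (Ddx58), had 2534, 2405 and 2637 normalized reads in -77-/- replicates 1 to 3, against 1710.3, 1614 and 1623 in wild type replicates 1 to 3. Its libraries were close together within each genotype and did not overlap, with a log2 fold change of 0.61 (SE 0.12, adjusted p = 7.80e-04), passing in all 16 alternatives.

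Trim21, a cytosolic receptor that binds antibodies on incoming viruses, had 259, 322 and 329 normalized reads in -77-/- replicates 1 to 3, against 181, 157 and 41.03 in wild type replicates 1 to 3. Wild type replicate 3 was far below the other wild type libraries. It had a log2 fold change of 1.51 (SE 0.49, adjusted p = 0.0311), and leaving out wild type replicate 3 gave 0.84, which still passed (adjusted p = 0.0312). Alternatives gave adjusted p from 0.0167 to 0.140, and Trim21 did not pass without -77-/- replicate 1, 2 or 3 (0.0637, 0.0969 and 0.0928), with edgeR (0.0610), with median-centred values (0.0649) and with limma without trend or robust fitting (0.140).

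The members that did not pass were Trim56, described as acting on the DNA sensing route through Tmem173 (STING), and Trim65, which ubiquitinates the RNA sensor MDA5 (Ifih1). Trim56 had a log2 fold change of -0.36 (95% interval -0.75 to 0.03, adjusted p = 0.154), and Trim65 had 0.35 (95% interval -0.41 to 1.11, adjusted p = 0.483). Trim56 passed as lower in 1 alternative, median-centred values (log2 fold change -0.56, adjusted p = 0.0282).

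Genes of the route on which these ligases act were partly higher. Of 17 tested, 8 were higher (47.1%, against 16.9% of all genes) and none was lower. Of the 17, 3 entered only through the genotype in which they were high (Dhx58, Isg15 and Zbp1). These 3 are among the 8 higher genes, so nothing is read from that count. Isg15 and Irf7 also belong to the interferon-inducible genes given below. Tmem173 averaged 943 ± 157 in -77-/- and 88.4 ± 6.96 in wild type (SD, n = 3 each), with a log2 fold change of 3.39 (SE 0.25, adjusted p = 8.96e-08). The sensor gene Ddx58 averaged 300.3 ± 73.7 in -77-/- and 53.6 ± 17.8 in wild type, with a log2 fold change of 2.48 (SE 0.40, adjusted p = 2.15e-04). Ifih1 had a log2 fold change of 1.201 (adjusted p = 0.0432), and Tab2, a target of Trim30a at the protein level, had 0.57 (adjusted p = 0.00152). The 4 with the largest change were Dhx58 (5.24), Zbp1 (5.21), Isg15 (4.75) and Irf7 (4.18). Mavs, the adaptor that joins both RNA sensors, had -0.15 (95% interval -0.74 to 0.44, adjusted p = 0.713).

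Of 16 interferon-inducible genes, 14 were higher, against 16.9% of all genes, none was lower, and Stat2 and Ifi44 did not pass. Of the 16, 8 entered only through the genotype in which they were high, so nothing is read from that count. Mx2 had 708 reads in -77-/- over 3 libraries, against 1 in wild type, a ratio of 655 after size factors (exact 95% interval 117 to 25911, counting error only). Oas2 had 735 reads against 2, a ratio of 340.04 (93.8 to 2813), and Ifit3 had 285 against 2, a ratio of 132 (36.2 to 1094). The monocyte, dendritic, neutrophil and lymphoid marker sums given above were also higher in -77-/- without overlap, though single neutrophil markers went both ways. The endothelial sum was higher too, at 438 to 540 in -77-/- libraries, against 110 to 248 in wild type libraries. Only 1 of its 3 markers passed as higher (log2 fold change 1.78), and the other 2 did not pass (0.16 and 0.18). The megakaryocyte, mast cell and hepatocyte sums overlapped. The part of these cell types in the Trim results was not tested.

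Promoter windows of these members are shown for a shared motif, the core of the interferon-stimulated response element (ISRE core), which is GAAA, any 2 bases, then GAAA. Capitals mark this motif and, where present, GAGGAAGT, a motif of the myeloid factor PU.1 (Spi1), each on either strand. On the opposite strand the ISRE core reads TTTC, any 2 bases, then TTTC. The windows run from 250 bases before to 50 bases after the RefSeq gene start in GRCm38.p6. That of Trim30a is chr7:104465144-104465443 on the minus strand, that of Trim12a chr7:104315446-104315745 on the minus strand and that of Trim34a chr7:104244207-104244506 on the plus strand. The window of Trim26 is chr17:36836896-36837195 on the plus strand and that of Trim21 chr7:102565433-102565732 on the minus strand.
Trim30a: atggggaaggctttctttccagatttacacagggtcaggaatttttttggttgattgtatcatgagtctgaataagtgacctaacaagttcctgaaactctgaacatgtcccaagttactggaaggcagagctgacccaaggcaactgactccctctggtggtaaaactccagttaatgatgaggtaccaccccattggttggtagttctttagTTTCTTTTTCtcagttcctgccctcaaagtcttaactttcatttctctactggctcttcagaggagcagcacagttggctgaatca
Trim12a: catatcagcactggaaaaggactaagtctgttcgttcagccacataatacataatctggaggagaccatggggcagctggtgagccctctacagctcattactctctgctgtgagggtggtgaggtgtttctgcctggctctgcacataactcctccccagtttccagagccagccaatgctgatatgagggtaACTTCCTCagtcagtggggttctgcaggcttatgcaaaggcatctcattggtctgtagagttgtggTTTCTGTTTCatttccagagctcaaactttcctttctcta
Trim34a: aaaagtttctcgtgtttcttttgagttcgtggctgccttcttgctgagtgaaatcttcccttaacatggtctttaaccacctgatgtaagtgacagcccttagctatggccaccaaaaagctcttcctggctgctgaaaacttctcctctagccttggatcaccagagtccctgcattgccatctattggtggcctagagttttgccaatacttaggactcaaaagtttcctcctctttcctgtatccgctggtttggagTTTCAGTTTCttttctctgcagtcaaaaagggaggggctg
Trim26: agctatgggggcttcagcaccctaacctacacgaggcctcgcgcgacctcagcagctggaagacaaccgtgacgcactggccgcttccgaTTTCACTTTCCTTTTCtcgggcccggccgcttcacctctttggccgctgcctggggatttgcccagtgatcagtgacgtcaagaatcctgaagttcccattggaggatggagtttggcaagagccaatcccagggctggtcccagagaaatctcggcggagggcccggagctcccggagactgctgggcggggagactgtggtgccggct
Trim21: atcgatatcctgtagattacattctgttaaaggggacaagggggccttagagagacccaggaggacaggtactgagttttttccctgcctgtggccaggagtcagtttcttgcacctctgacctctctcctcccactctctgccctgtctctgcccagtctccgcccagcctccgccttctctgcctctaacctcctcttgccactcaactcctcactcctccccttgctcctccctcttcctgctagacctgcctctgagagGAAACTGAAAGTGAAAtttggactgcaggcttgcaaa
The matches differ by subgroup. Trim30a and Trim30d share TTTCTTTTTC, which begins 36 and 41 bases before their starts. Trim5, Trim12a and Trim12c share TTTCTGTTTC, which begins 49 bases before the start of Trim5, 29 before that of Trim12c and at base 11 after that of Trim12a. Trim34a holds TTTCAGTTTC. Trim26 and Trim21 each hold a pair of matches close to each other.

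Of 40 members with a RefSeq window, 9 hold the ISRE core in at least 1 window, against 3.99% of all genes with a window (3.44% of 32851 windows). They are 8 of 16 higher members (Trim5, Trim12a, Trim12c, Trim21, Trim26, Trim30a, Trim30d and Trim34a), 1 of 5 lower members (Trim2), none of 12 that did not pass and none of 7 below the filter. GAGGAAGT stands in a window of 3.69% of all genes (3.2% of windows) and, among members, in a window of Trim2, Trim5, Trim12a, Trim12c and Trim24. A match is a description of letters and not of binding, and the TRIM5-related windows share descent, so their matches are not independent.

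The order of genes on chromosome 7 shows where the higher members sit. Between Trim68 and Trim3, RefSeq lists 149 protein-coding genes, of which 12 are Trim genes and 114 are olfactory receptors. Trim6, Trim34a, Trim5, Trim12a, Trim34b and Trim12c follow each other with no other protein-coding gene between them, then come Gm38525, Trim30b, Trim30c, Trim30a and Trim30d. Of the 12 Trim genes, 9 were higher, against 16.9% of all genes tested, and none was lower. Trim30b, among the 9, and Trim34b entered only through the genotype in which they were high, so nothing is read from that count. Of 8 other genes of this stretch that were tested, 1 was higher (Usp17la, log2 fold change 1.12), 2 were lower and 5 did not pass. The lower ones were Smpd1 (-1.19) and the adult beta globin gene Hbb-bs (-3.62), whose cluster ends at Hbb-y, 22 genes before Trim6. Trim68 and Trim3, at the ends of the stretch, did not pass. Of all 16 members on chromosome 7, 11 were higher, none was lower, 4 did not pass and 1 was below the filter. Trim66, like Trim30b, is among these 11 and entered only through the genotype in which it was high. On chromosome 17, Trim26 (higher), Trim15 (below the filter) and Trim10 (lower) follow each other in the RefSeq order, so neighbouring Trim genes had opposite directions there.

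**Figure D4:**
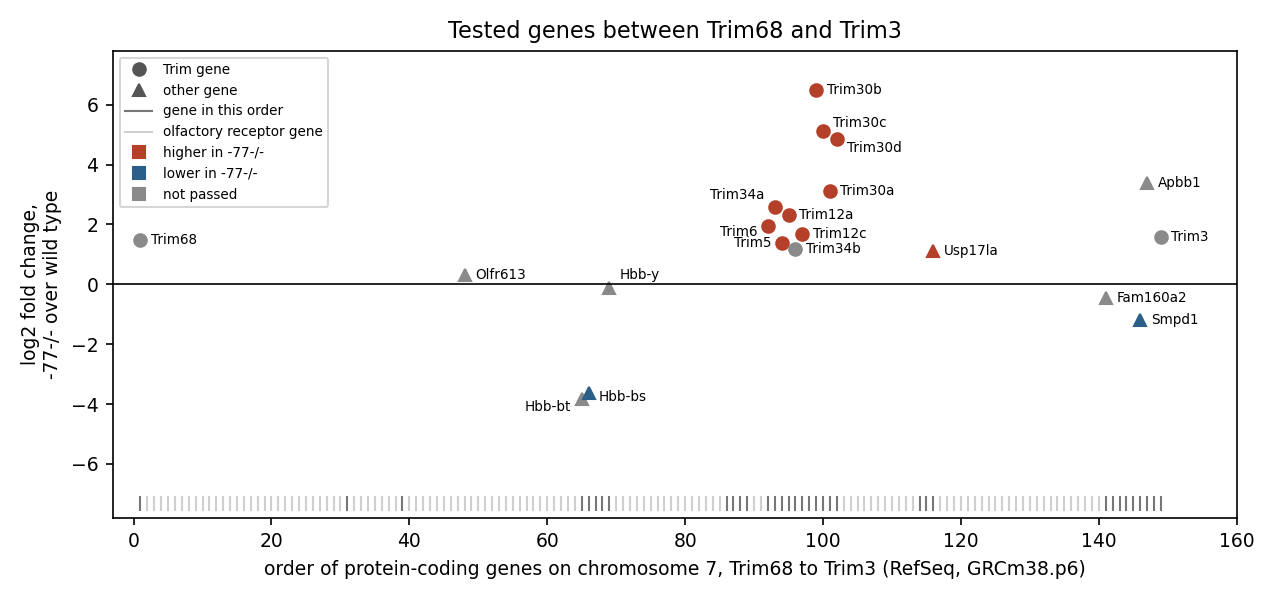
Log2 fold change, -77-/- over wild type (vertical axis), of tested genes by their rank among RefSeq protein-coding genes from Trim68 to Trim3 on chromosome 7 (horizontal axis), with Trim genes as circles, other genes as triangles and ticks for every gene of the order (light for olfactory receptors). The 9 higher Trim genes (red) run from Trim6 to Trim30d, and Hbb-bs (blue, -3.62) lies to their left.

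In the TIF1 group, 1 of 4 genes was lower, 1 was higher and 2 did not pass, with a median log2 fold change of -0.12. That is 50% called, against 32.2% of all genes, in a short list. Trim33 (TIF1γ), needed for blood formation in zebrafish and known to bind Smad proteins, had 1928, 1264 and 1448 normalized reads in -77-/- replicates 1 to 3, against 2755, 2744 and 2329 in wild type replicates 1 to 3. All -77-/- libraries lay below all wild type libraries, with a log2 fold change of -0.77 (SE 0.15, adjusted p = 0.00117). It passed in 15 of 16 alternatives, the exception being limma without trend or robust fitting (adjusted p = 0.0561). Of its 3 Smad partners tested, Smad4 was higher, at 988 ± 129.98 in -77-/- and 542 ± 129 in wild type (log2 fold change 0.88, adjusted p = 0.00290), and Smad2 and Smad3 did not pass.

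Trim28 (KAP1), the corepressor recruited by KRAB zinc finger proteins, had 6658, 5059 and 6857 normalized reads in -77-/- replicates 1 to 3, against 6244, 6938 and 7229.5 in wild type replicates 1 to 3. The groups overlapped, with a log2 fold change of -0.15 (SE 0.12, adjusted p = 0.383) and a 95% interval of -0.41 to 0.11. Trim24 (TIF1α), a coregulator of nuclear receptors, had 849, 859 and 694 normalized reads in -77-/- replicates 1 to 3, against 808, 809 and 956 in wild type replicates 1 to 3, and its groups also overlapped (log2 fold change -0.10, 95% interval -0.45 to 0.25, adjusted p = 0.674).

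Trim66 (TIF1δ), best known from testis, had 40.7, 21.4 and 18.8 normalized reads in -77-/- replicates 1 to 3, against 2.81, 0 and 0 in wild type replicates 1 to 3. Over 3 libraries this was 84 reads in -77-/- and 3 in wild type, a ratio of 25.9 (exact 95% interval 8.57 to 128). Its adjusted p was 0.0265, and 8 of 15 alternatives passed, from 0.0125 to 0.0883. Trim66 did not pass without -77-/- replicate 1, 2 or 3 (0.0883, 0.0841 and 0.0742), without wild type replicate 2 (0.0592), and with edgeR (0.0738). Without wild type replicate 1, which held all 3 wild type reads, it passed (log2 fold change 4.72, adjusted p = 0.0246).

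Of 11 corepressor partners of Trim28 tested, 4 were lower and 1 was higher. That is 45.5% called, against 32.2% of all genes, and 36.4% lower, against 15.2%. Both are differences of few genes in so short a list. Their median log2 fold change was -0.22. Setdb1, the histone methyltransferase brought in by Trim28, averaged 1840.4 ± 102 in -77-/- and 2623 ± 289.7 in wild type, with a log2 fold change of -0.51 (SE 0.12, adjusted p = 0.00537). The deacetylase gene Hdac2 had a log2 fold change of -0.45 (adjusted p = 0.00641), the heterochromatin protein gene Cbx1 had -0.40 (adjusted p = 0.0154), and Sumo2 had -0.34 (adjusted p = 0.0339). Morc3 was higher, at 0.63 (adjusted p = 0.00226).

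Among members with NHL repeats, a propeller that binds RNA or protein, 1 of 3 tested was lower. Over all genes 15.2% were lower, and nothing is read from so short a list. Trim2, a ligase of neurofilament light chain in neurons, had 25.4, 47.6 and 57.2 normalized reads in -77-/- replicates 1 to 3, against 209, 204 and 199 in wild type replicates 1 to 3. Wild type libraries were nearly equal and all lay far above -77-/-, with a log2 fold change of -2.28 (SE 0.46, adjusted p = 0.00140), passing in all 16 alternatives. Trim3 had 27.5, 66.1 and 93.1 normalized reads in -77-/- replicates 1 to 3, against 21.6, 18.96 and 13.7 in wild type replicates 1 to 3, which did not overlap, but its log2 fold change of 1.59 (95% interval -0.11 to 3.28) had an adjusted p of 0.144. Trim32, known from muscle, had 0.04 (adjusted p = 0.910). Trim71, a stem cell gene and target of let-7, was below the filter, with 6 reads in -77-/- and 0 in wild type.

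Of members with a COS box or from muscle, 2 of 3 tested were higher. Over all genes 16.9% were higher, and nothing is read from so short a list. Trim36, a microtubule-associated ligase, had 299, 262 and 259.5 normalized reads in -77-/- replicates 1 to 3, against 22.5, 1.996 and 2.28 in wild type replicates 1 to 3. Wild type replicate 1 held nearly all of the wild type signal, and every -77-/- library was far higher, with a log2 fold change of 5.48 (SE 0.83, adjusted p = 1.25e-04). It passed in all 16 alternatives, with 4.87 from edgeR, and leaving out wild type replicate 1 gave 6.45.

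Trim55 (MURF2), a sarcomere-associated ligase of muscle, had 68.1, 43.7 and 50.4 normalized reads in -77-/- replicates 1 to 3, against 0, 0 and 39.9 in wild type replicates 1 to 3. Wild type replicate 3 held all wild type reads and lay just below the lowest -77-/- library. Its log2 fold change was 3.97 (adjusted p = 0.0408), and 6 of 16 alternatives passed, from 0.00192 to 0.375. Trim55 did not pass without -77-/- replicate 1, 2 or 3 (0.125, 0.104 and 0.114), without wild type replicate 1 or 2 (0.129 and 0.115, each with a log2 fold change of 3.08), with edgeR (0.375) or with DESeq2 (0.309). The log2 fold change was 2.04 with edgeR and 2.03 with DESeq2, and leaving out wild type replicate 3 gave 5.76, which passed. Both muscle markers with a row summed to 34.2 to 45.8 in -77-/- libraries, against 0 to 26.3 in wild type libraries. Of these, 1 was below the filter, and the 1 tested did not pass and entered only through the genotype in which it was high. The part of muscle markers in the level of Trim55 was not tested. Trim67 had -0.33 (adjusted p = 0.750), and Trim46 and Trim63 were below the filter.

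Members tied to membranes, vesicles, autophagy or organelles gave 1 higher, 1 lower and 3 that did not pass. That is 40% called, against 32.2% of all genes, in a short list. Trim37, a ligase of peroxisomes and centrosomes, had 2849, 2621 and 3163 normalized reads in -77-/- replicates 1 to 3, against 4289, 4721 and 4244 in wild type replicates 1 to 3. The groups did not overlap and were tight, with a log2 fold change of -0.62 (SE 0.11, adjusted p = 5.21e-04), passing in all 16 alternatives. Trim16, which takes part in the autophagy of damaged membranes, had 46.8, 45.7 and 50.4 normalized reads in -77-/- replicates 1 to 3, against 2.81, 0 and 15.95 in wild type replicates 1 to 3. It had a log2 fold change of 3.60 (SE 1.199, adjusted p = 0.0318), and 7 of 15 alternatives passed, from 0.00647 to 0.128. Trim16 did not pass without -77-/- replicate 1, 2 or 3 (0.0845, 0.102 and 0.112), without wild type replicate 1 (0.0625) or 2 (0.0792, log2 fold change 2.59) or with edgeR (0.128, log2 fold change 2.93). With DESeq2 it was 2.95, which passed (adjusted p = 0.0499). Leaving out wild type replicate 3 gave 4.64, which passed. Trim13, Trim23 and Trim59 had log2 fold changes of 0.12, -0.37 and -0.30 and did not pass. Trim59 passed as lower without wild type replicate 3 (-0.47, adjusted p = 0.0292) and with median-centred values (-0.50, adjusted p = 0.0379).

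Of 12 tested members outside these groups, 4 were higher, 1 was lower and 7 did not pass, with a median log2 fold change of 0.33. That is 41.7% called, against 32.2% of all genes, a difference of few genes. Trim45, a ligase described in MAP kinase signalling, had 126, 115 and 91.4 normalized reads in -77-/- replicates 1 to 3, against 31.9, 33.9 and 28.5 in wild type replicates 1 to 3. The groups were clearly apart, with a log2 fold change of 1.77 (SE 0.55, adjusted p = 0.0216), and 13 of 16 alternatives passed. Trim45 did not pass without -77-/- replicate 1, 2 or 3 (0.0674, 0.0877 and 0.0611; range over alternatives 0.00387 to 0.0877). Trim7, which binds glycogenin, had 30.5, 32.1 and 40.1 normalized reads in -77-/- replicates 1 to 3, against 2.81, 7.98 and 1.14 in wild type replicates 1 to 3. All -77-/- libraries were above all wild type libraries at a low level, with a log2 fold change of 3.06 (SE 1.12, adjusted p = 0.0481), and 5 of 15 alternatives passed, from 0.0182 to 0.162. Trim7 did not pass without -77-/- replicate 1, 2 or 3 (0.0926, 0.134 and 0.162), without wild type replicate 1 or 3 (0.0767 and 0.0629) or with edgeR (0.105).

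The other higher members changed less than 2-fold. Trim41 had 974, 1036 and 1063 normalized reads in -77-/- replicates 1 to 3, against 782, 684 and 733 in wild type replicates 1 to 3, without overlap, with a log2 fold change of 0.48 (SE 0.15, adjusted p = 0.0244). Trim41 did not pass without -77-/- replicate 2 or 3 (0.0757 and 0.0980), without wild type replicate 2 (0.0743), with limma without trend or robust fitting (0.0611) or with median-centred values (0.188; range over alternatives 0.0175 to 0.188). Trim35, first described as Hls5 in a switch of an erythroid cell line to monocytic cells, had 1959, 1568 and 1975 normalized reads in -77-/- replicates 1 to 3, against 1147, 1245 and 1668 in wild type replicates 1 to 3. Its groups overlapped, with a log2 fold change of 0.45 (SE 0.16, adjusted p = 0.0424), and 8 of 16 alternatives passed, from 0.00623 to 0.250. Trim35 did not pass without -77-/- replicate 1 or 3 (0.136 and 0.155), without wild type replicate 1 or 2 (0.167 and 0.128), with DESeq2 (0.0532) and with median-centred values (0.250).

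Trim27 was the lower one. This ligase, which acts in endosomal recycling, had 1929, 1912 and 2143 normalized reads in -77-/- replicates 1 to 3, against 2399.9, 3081 and 2423 in wild type replicates 1 to 3. The groups did not overlap, though wild type replicate 2 was well above the other wild type libraries, with a log2 fold change of -0.39 (SE 0.13, adjusted p = 0.0292). Of 16 alternatives 12 passed, from 0.00453 to 0.156, and Trim27 did not pass without -77-/- replicate 1 or 2 (0.0851 and 0.0804), without wild type replicate 2 (0.153) and with limma without trend or robust fitting (0.156). Trim44, a relative that lacks the RING domain and is among the 5 members with most reads, had 2509, 2611 and 2848 normalized reads in -77-/- replicates 1 to 3, against 2733, 3194 and 2604 in wild type replicates 1 to 3. Its groups overlapped, with a log2 fold change of -0.09 (95% interval -0.35 to 0.16, adjusted p = 0.572).

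Trim68 had 136, 129 and 67.4 normalized reads in -77-/- replicates 1 to 3, against 17.8, 70.8 and 41.03 in wild type replicates 1 to 3, which overlap by 1 library, and a log2 fold change of 1.48 (95% interval 0.15 to 2.80, adjusted p = 0.0846). It passed without wild type replicate 2 (log2 fold change 1.93, adjusted p = 0.0439). Trim17 had 2.51 (adjusted p = 0.156), and Trim8, Trim11, Trim39 and Trim43a ran from -0.58 to 0.21 and did not pass. The Ensembl ID of the row named Trim43a is Trim43c in GENCODE M21, and 58.6% of its 50-base windows also occur in other genes. Below the filter were 9 members, with 4 to 22 reads in -77-/- and 0 to 17 in wild type: Trim15, Trim43b, Trim46, Trim47, Trim50, Trim62, Trim63, Trim71 and Trim72.

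Trim proteins known by other names and the ubiquitin conjugating enzymes that serve the family were also read. Mefv, which encodes pyrin, a sensor of neutrophils and monocytes, was higher, at 93.9 ± 24.95 in -77-/- and 26.1 ± 20.2 in wild type (log2 fold change 2.09, adjusted p = 0.0418). Pml, which builds nuclear bodies, was lower, at 552 ± 60.3 in -77-/- and 999 ± 123 in wild type (-0.85, adjusted p = 0.00141). Mid1 was uneven within both genotypes, with 5571, 2419.7 and 880.2 normalized reads in -77-/- replicates 1 to 3, against 5020.2, 632 and 1976 in wild type replicates 1 to 3, and did not pass. Mid2 and Bspry were below the filter, and Cmya5 did not pass. Of 13 conjugating enzymes tested, 1 was higher and 1 was lower, with a median log2 fold change of -0.02. The share called was 15.4%, against 32.2% of all genes. Ube2w, which attaches ubiquitin to the start of a protein chain, averaged 356 ± 24.7 in -77-/- and 104 ± 36.5 in wild type, with a log2 fold change of 1.84 (SE 0.34, adjusted p = 7.25e-04). Ube2v2, a partner of Ube2n in forming K63-linked chains, averaged 631 ± 114 in -77-/- and 1318 ± 100.1 in wild type, with a log2 fold change of -1.08 (SE 0.17, adjusted p = 1.96e-04).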

How the data were processed

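RNA was measured in 3 -77-/- and 3 wild type libraries. Per the labels' protocols, a NuGEN Ovation single cell kit was used on 10 ng of RNA, with single reads of 50 nt. The submitters' processing notes name the tools STAR 2.5, Bowtie, RSEM 1.2.31 and DESeq2 and the build mm9. The sources used here do not state their roles, the annotation or how strand was treated. The deposited library columns are a normalized signal: gene counts that the authors divided by 1 size factor per library. All values were whole multiples of 1 step per library (tolerance 0.01 of a read), which gave back the reads. Reads recovered from RSEM output would be rounded expected counts. The authors' deposited log2 fold changes and adjusted p-values (treated as a score, since 8 rows hold other numbers there) served for comparison only. Those 8 of 19444 rows, all small RNA genes with cells moved sideways, were left out.

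limma 3.58.1 in R 4.3.3, with trend and robust fitting, was run on log2(value + 1) of the 15821 genes with a mean of at least 10 in the higher genotype, with Benjamini-Hochberg adjustment over all of them and a threshold of 0.05. Fold changes are differences between means of logs: the added 1 shrinks those of low genes, and uneven libraries can make them larger than the ratio of means. Alternatives were pseudocounts of 0.1 and 5, no filter or 50, TMM scaling, median-centring, edgeR 4.0.16, DESeq2 1.42.0, limma-voom, limma without trend or robust fitting, and each library left out. The fit was tested on simulated data. Members and lists were chosen with earlier results of these data known. Named with values in each library were members past the threshold with at least 2-fold change, the TIF1 and erythroid members, Trim21, Trim25 and the 5 with most reads, and other members whose call an alternative changed are named with that value. In partner lists the called genes of largest change come first, and others (such as Tmem173, Ddx58, Dync1h1, Mavs and Mid1) were named after their values were seen. Exact 95% intervals of read ratios and floors of 3 reads cover counting error only. The 95% intervals of log2 fold changes come from limma and rest on the spread among libraries. No 2 libraries agreed within sampling noise. With 3 libraries against 3 an exact permutation test cannot go below p = 0.1, so none is given. Promoters and gene order come from RefSeq (GRCm38.p6) and shared 50-base windows from GENCODE M21; as that build differs from mm9, no other coordinates are given.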

Additional observations from a re-analysis of the deposited data

How the results depend on the processing

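Over 16 alternatives, 18 to 27 members passed, against 27 in the fit reported. The number of higher members was 12 to 19 when 1 library was left out, against 21, and it was lowest without -77-/- replicates 1, 2 and 3 (13, 13 and 12). With edgeR 14 members were higher and 5 lower, and with DESeq2 18 and 6. Median-centring moved the median log2 fold change of all genes from 0.10 to -0.11, which gave 2176 higher and 3495 lower genes, against 2681 and 2410, and 17 higher and 8 lower members. Without trend or robust fitting, 1430 genes were lower, against 2410. Of 27 called members, 14 passed in every alternative run. Of 726 values over 46 members, 635 kept their direction and call, 76 lost the call, 5 gained one and 10 changed sign. None of these 10 belonged to a called member. With median-centred values Trim8 had -0.18, Trim13 -0.086 and Trim32 -0.16. With each library left out, log2 fold changes ran from -0.62 to 0.0744 for Trim67 (above 0 without -77-/- replicate 3), from -0.0763 to 0.41 for Trim13 (below 0 without -77-/- replicate 2), from -0.0428 to 0.104 for Trim32 (below 0 without -77-/- replicate 3), from -0.0177 to 0.46 for Trim11 (below 0 without wild type replicate 2), from -1.08 to 0.25 for Trim43a (above 0 without -77-/- replicate 1) and from -0.0502 to 0.105 for Trim8 (below 0 without -77-/- replicate 1 and without wild type replicate 2). The cause was not tested in these cases, though leaving out a library leaves fewer samples. No paired analysis was possible because the labels give no replicate numbers, litters or batches that -77-/- and wild type libraries share.

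Depth limits members with few reads: Trim7, Trim16, Trim17, Trim30b, Trim30c, Trim30d, Trim34b, Trim36, Trim55 and Trim66 stood at or under 3 reads in 1 to 3 libraries, and the 7 members with the largest positive log2 fold changes are among them. The 3 libraries per genotype and unknown strand and multi-mapping settings limit the close copies on chromosome 7.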
